A study of Mus musculus with 9 samples.

Results

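The cells described here were the induced neurons (iNs) in which both Snap25 and Syt1 were detected. Snap25 encodes a membrane protein of the machinery that fuses synaptic vesicles, and Syt1 encodes the calcium sensor of that fusion. A barcode was kept when it held at least 3000 unique molecular identifiers (UMI, 1 per captured transcript) of which at most 20% were mitochondrial. It was a neuron when at least 4 of 8 neuronal genes (Stmn2, Stmn3, Elavl3, Elavl4, Dcx, Celf3, Nsg1, Scg3) had at least 1 UMI and the 3 collagen genes Col1a1, Col1a2 and Col3a1 together stayed under 60 UMI per 10000. The neurons with at least 1 UMI of Snap25 and at least 1 UMI of Syt1 numbered 6068 of 8438 neurons (71.9%) and of 81999 cells kept (7.40%), and they are called Snap25/Syt1 neurons below. The cells were thus selected on their own counts of these 13 genes. The 2370 neurons that lacked either gene are called other neurons.

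Fibroblasts can be turned into neurons without a stem cell stage by forced expression of neuronal transcription factors, among them Brn2 (gene symbol Pou3f2) and Myt1l. Brn2 acts in neural progenitors and neurons, and Myt1l represses the genes of other lineages. New neurons first switch on cytoskeletal and RNA-binding genes, and genes for excitability, vesicle release and synaptic contact follow as they grow neurites. Snap25 and Syt1 belong to the later group.

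The question of the study was whether loss of the circadian regulators Per1 or Per2 changes this conversion. Mouse embryonic fibroblasts (MEFs) were prepared from WT, Per1-/- (Per1tm1Drw) or Per2-/- (Per2tm1Drw) embryos without head and heart, with embryos pooled for each dish, and their sex was not determined. All groups, WT included, received lentiviruses for such factors under a doxycycline-controlled promoter together with the transactivator, and doxycycline was given from day 0. Cells of 3 genotypes were taken on days 4, 7 and 10, with 1 droplet 3′ library per genotype and day. Thus the 9 libraries gave no replicate within a genotype and day, days served as replicates for genotypes and genotypes for days, and every p-value measures only the spread between these libraries.

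The 9 libraries held 126625215 to 353198559 UMI over 6885 to 13309 barcodes. The WT day 10 library stood apart as the shallowest. Its median barcode held 3552 UMI (16135 to 25795 in the other 8), and 55.4% of its barcodes were kept, against 86.1% to 94.5%. Pairs of libraries shared 11 to 38 barcode sequences. The day 10 files were made with a different gene table from those of days 4 and 7, so that day 10 and table cannot be told apart for single genes. Macrophages were the non-neuron cells that carried at least 5 of 8 macrophage genes at 3 or more UMI. Of the genes tested in Snap25/Syt1 neurons, 89 moved more than 2-fold from day 7 to day 10 in all 3 genotypes both in macrophages and in the remaining non-neuron cells. Timm23 was among them, with 4.99 to 8.20 CPM before day 10 and 129 to 140 CPM on day 10. Levels are given as CPM, the UMI of a gene summed over the Snap25/Syt1 neurons of a library and scaled to a total of 1000000.

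Snap25/Syt1 neurons numbered 990, 701 and 211 in WT, 1378, 248 and 299 in Per1-/-, and 751, 744 and 746 in Per2-/- libraries on days 4, 7 and 10. Their median depth was 12470 to 18936 UMI per cell, against 6437 to 12744 in other neurons and 9770 to 37827 in macrophages. The summed counts of a library came to 4407659 to 30991196 UMI. Snap25 (chr2:136713453-136782428, plus strand, mm10) stood at 145 to 290 CPM and Syt1 (chr10:108497650-109010982, minus strand) at 351 to 435 CPM. These levels describe the selection, as do the 8 neuronal genes, which summed to 1735 to 4532 CPM.

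The selection was checked against genes that it did not use. Tubb3, the neuronal tubulin, was found in 96.8% to 99.6% of Snap25/Syt1 neurons when each cell was thinned to 10000 UMI, against 3.96% to 21.0% of macrophages thinned alike, and in 97.9% to 99.9% without thinning. Gria2, a glutamate receptor subunit, was found in 71.6% to 89.0% and in 1.83% to 6.21% of macrophages. Both genes were thus far above the background of free RNA. Markers of other cell types were also present. The 16 macrophage markers summed to 182 to 1590 CPM, against 19513 to 28272 CPM in macrophages, and 122 of the 6068 cells carried at least 5 of 8 macrophage genes at 3 or more UMI. Without those 122 cells the sum was 22.7 to 137 CPM. Schwann markers summed to 87.8 to 314 CPM, skeletal muscle markers to 66.7 to 382 CPM and astrocyte markers to 77.5 to 189 CPM. In macrophages these sums were 43.1 to 110, 28.9 to 79.0 and 40.3 to 97.1 CPM, each lower than in the Snap25/Syt1 neurons of the same library. Fibroblast markers outside the rule summed to 3726 to 5229 CPM, against 6412 to 9249 CPM in macrophages, to which the collagen limit did not apply. Doublets were ranked against simulated pairs, and in each library a number fixed beforehand (0.8% of barcodes per 1000 barcodes) was marked. Of the 6068 cells 428 (7.05%) were marked, against 5.72% to 11.2% of all cells kept per library.

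Cells near the threshold were common. The median Snap25/Syt1 neuron held 2 to 4 UMI of Snap25 and 5 to 7 UMI of Syt1, depending on the library. In 227 cells both genes were at 1 UMI, and in 1928 cells at least one was. Just outside, 1423 other neurons held Syt1 without Snap25, 556 held Snap25 without Syt1, and 391 held neither. A further 538 cells held both genes but only 3 of the neuronal genes, and 995 held both with collagen at or over the limit. Since deeper cells pass such a threshold more easily, shares are given below with and without thinning.

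Thinning drew 10000 UMI from each cell that had them, which left 168 to 1241 Snap25/Syt1 neurons, 35 to 332 other neurons and 187 to 1740 macrophages per library for the shares of cells with a UMI of a gene. For thinned shares of Snap25/Syt1 neurons and thinned sums of counts, from which genes were called or compared, the rule was applied again to the thinned cells, so that membership changed too, leaving 134 to 840 Snap25/Syt1 neurons and 44 to 474 other neurons per library. Transcripts of the introduced and the endogenous genes cannot be told apart in these counts.

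The share of Snap25/Syt1 neurons among cells kept was highest on day 4 in every genotype. It was 11.4%, 8.16% and 3.08% in WT, 12.7%, 3.88% and 3.26% in Per1-/-, and 9.02%, 6.66% and 6.25% in Per2-/- on days 4, 7 and 10. The exact (Clopper-Pearson) 95% interval for WT day 4 was 10.7% to 12.1% and that for WT day 10 was 2.69% to 3.52%, covering counting error only. The 3 slopes summed to -3.41 percentage points per day with p = 0.00926 in a two-sided exact permutation test of days within genotypes, the smallest p this design allows, but 0.0556 after Benjamini-Hochberg adjustment over 6 tests. Thinned to 10000 UMI, the shares were 5.81%, 4.74% and 3.75% in WT, 8.12%, 2.22% and 1.98% in Per1-/-, and 3.96%, 4.49% and 4.62% in Per2-/-, and the sum of slopes was -1.26 points per day (exact permutation p = 0.148). It was -0.808 points per day after thinning to 5000 UMI and -1.78 with a minimum of 2 UMI of each gene (exact permutation p = 0.0370 for both, adjusted p = 0.0741 and 0.222). Thinning to 10000 UMI left out 313 of 751 Snap25/Syt1 neurons of Per2-/- on day 4 but 147 of 746 on day 10. In WT day 10 it left out 3275 of 6847 cells kept but only 43 of 211 Snap25/Syt1 neurons. In that library alone the share rose on thinning, so the thinned slopes do not simply correct for depth. Thinned to 5000 UMI, the Per2-/- shares were 3.94%, 3.17% and 3.34%, so that the course in Per2-/- depended on the depth chosen. With 6 tests, the smallest possible p of a lone slope stays above the adjusted threshold by design.

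**Figure D1:**
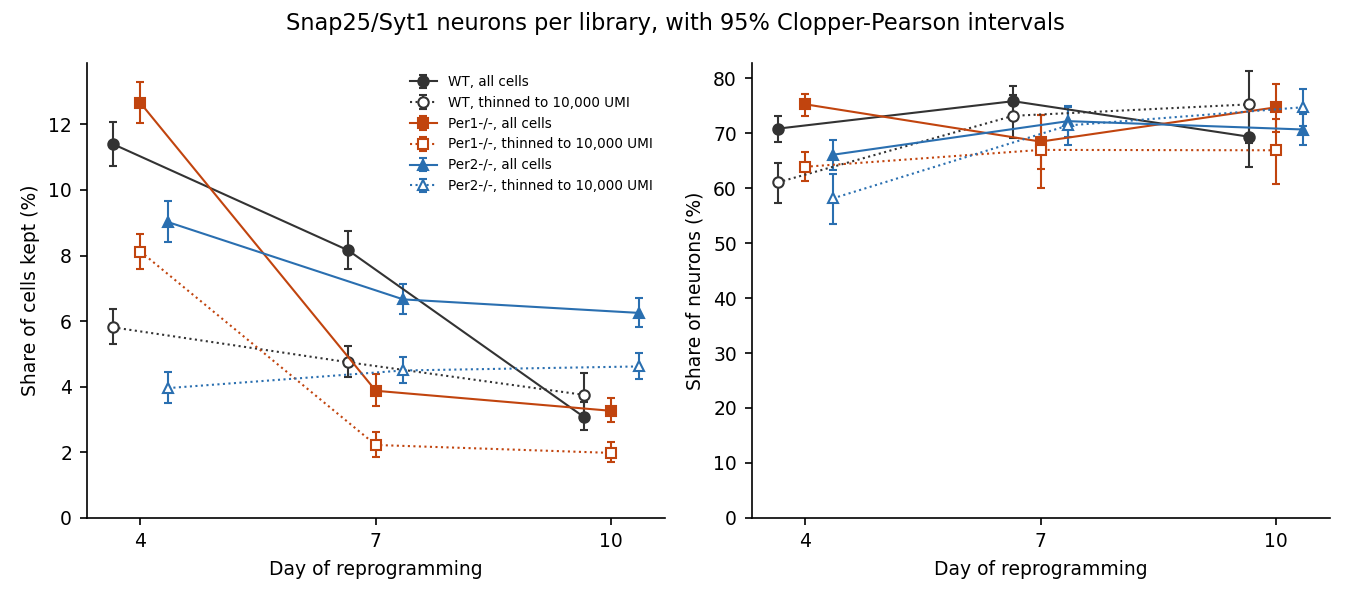
The share of Snap25/Syt1 neurons in percent of cells kept (left) and of neurons (right) is plotted by day for the 3 genotypes, with filled markers for all cells, open markers for cells thinned to 10000 UMI, and 95% Clopper-Pearson intervals as bars. The filled day 10 values of WT and Per1-/- (3.08% and 3.26%) lie below every other filled value on the left, while the filled shares of neurons stay between 66.1% and 75.9%.

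Among neurons, the share with both genes was between 66.1% and 75.9% in all 9 libraries. It was 70.9%, 75.9% and 69.4% in WT, 75.3%, 68.5% and 74.8% in Per1-/-, and 66.1%, 72.2% and 70.7% in Per2-/- on days 4, 7 and 10, and the genotypes overlapped. Thinned to 10000 UMI, it ranged from 58.2% to 63.9% (day 4), 67.0% to 73.2% (day 7) and 66.9% to 75.3% (day 10), so that no day 4 library reached the later ones. The sum of slopes was 0.432 points per day without thinning (exact permutation p = 0.787), 5.64 after thinning to 10000 UMI (p = 0.0185, adjusted p = 0.111) and 7.88 after thinning to 5000 UMI (p = 0.00926, the smallest possible, adjusted p = 0.0556). The mean share in Per1-/- differed from that of the other genotypes by -0.831 points among cells kept and 1.99 points among neurons, and in Per2-/- by 0.240 and -2.77 points. None of these 4 differences passed the test (exact permutation p = 0.370 to 0.889, where 0.0370 is the smallest possible). Among neurons, thinning reversed the Per1-/- difference to -3.04 points at 10000 UMI (p = 0.296 by the exact permutation test) and -4.51 points at 5000 UMI (p = 0.0370, adjusted p = 0.0741).

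The changes with day were wide. On day 7 compared with day 4, 2154 of 14606 genes tested (14.7%) changed at an adjusted p under 0.05 by the quasi-likelihood test of edgeR. Of these, 1332 (9.12%) were higher on day 7 and 822 (5.63%) were lower. The count was 1235 after thinning and 988 to 1305 without any single library of day 4 or day 7, lowest without Per1-/- day 4. On day 10 compared with day 4, 5718 genes changed (39.1%), with 3036 higher (20.8%) and 2682 lower (18.4%). Without the 89 genes that moved more than 2-fold in macrophages and the remaining non-neuron cells, 2957 and 2672 were left. Smaller steps between the gene tables were not removed and cannot be told apart from day 10. Of the genes that rose by day 10, 1137 had also risen by day 7, and of those that fell 757 had also fallen, although both comparisons share the day 4 libraries. The genes of the rule were left out of these counts. In these sums, more cells with a transcript and more transcript per cell cannot be told apart.

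Ly6h, a neuronal surface protein (chr15:75551268-75567255), stood at 15.9, 18.3 and 20.2 CPM in WT, Per1-/- and Per2-/- on day 4, at 114, 105 and 146 CPM on day 7, and at 253, 262 and 304 CPM on day 10. The days did not overlap, and the log2 fold changes were 2.73 ± 0.09 (SE) by day 7 and 3.98 ± 0.09 by day 10 (edgeR adjusted p = 8.29e-07 and 3.08e-08). L1cam, an adhesion molecule of growing axons, rose in the same libraries from 2.45, 3.55 and 4.36 CPM to 27.7, 25.8 and 30.9 CPM and then to 68.0, 54.1 and 68.1 CPM. Its days did not overlap either. Mapt, which encodes the axonal microtubule protein tau (chr11:104231390-104332090), stood at 73.3, 87.9 and 96.8 CPM on day 4, 303, 289 and 354 CPM on day 7 and 493, 527 and 539 CPM on day 10 (log2 1.87 ± 0.09 and 2.68 ± 0.09). After thinning, Mapt was found in 41.1% to 50.5% of the day 4 cells and 86.3% to 87.1% of the day 10 cells, against 0.407% to 8.86% of macrophages. Gap43, a growth cone protein, rose from 23.2 to 32.0 CPM on day 4 over 144 to 174 CPM on day 7 to 494, 206 and 313 CPM in WT, Per1-/- and Per2-/- on day 10.

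**Figure D2:**
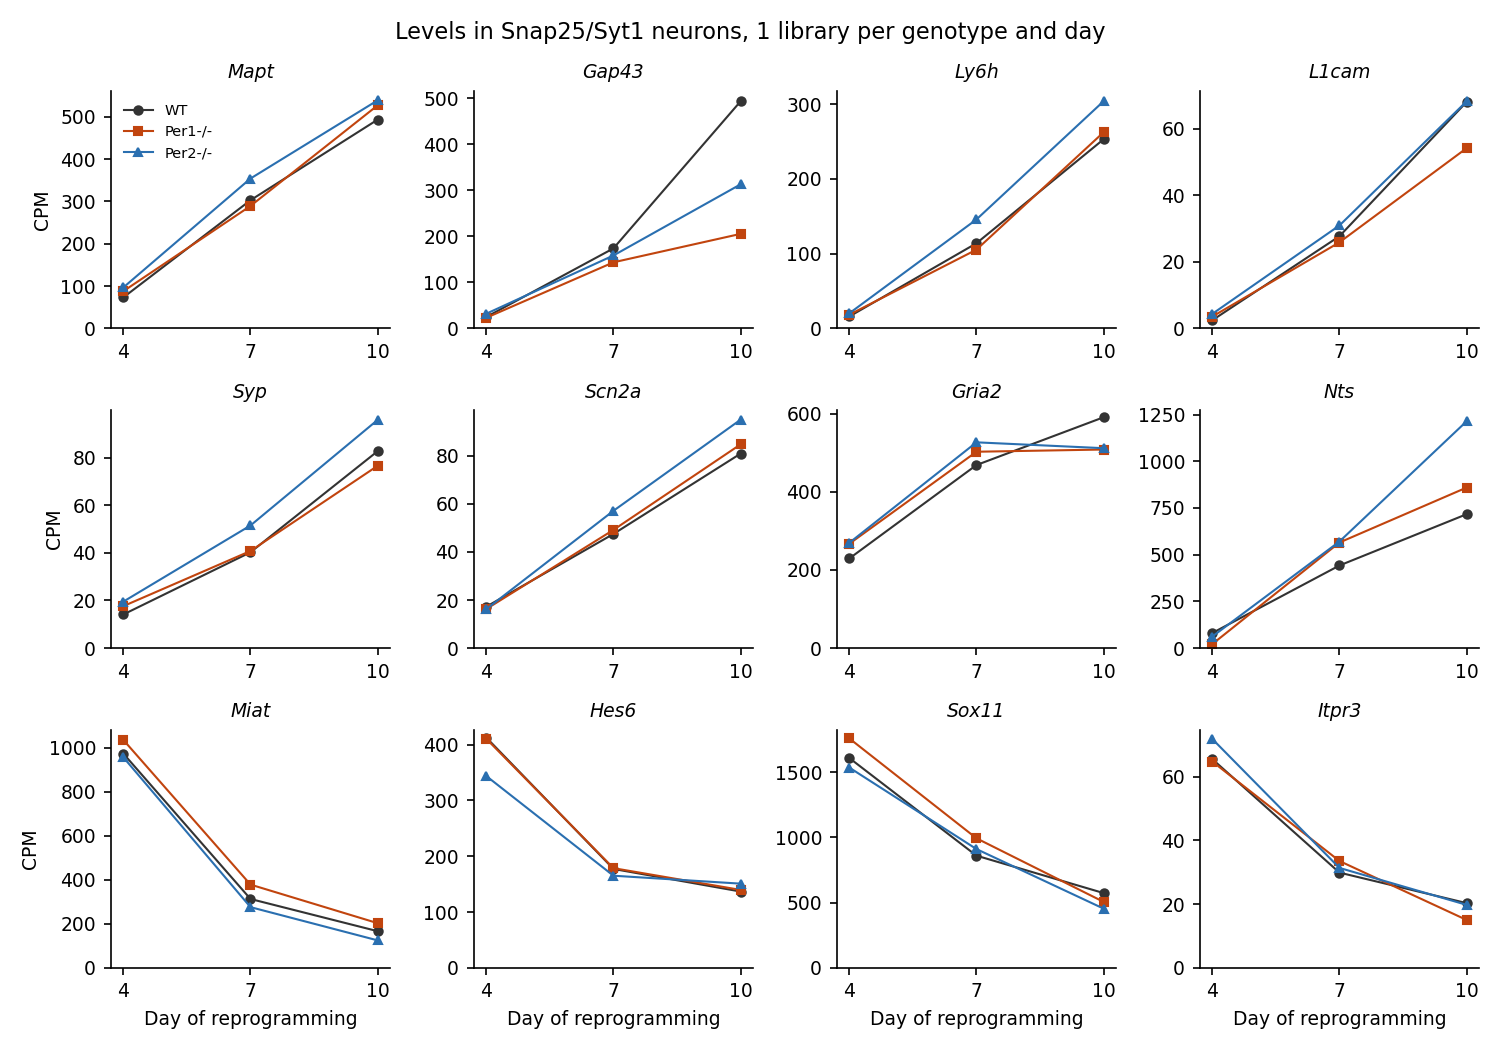
CPM of 12 genes in the Snap25/Syt1 neurons of each library is plotted against the day of reprogramming, with 1 point per genotype and day. In the first 8 panels (Mapt to Nts) every day 7 point lies above every day 4 point, and in the last 4 (Miat, Hes6, Sox11, Itpr3) below.

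Cytoskeletal genes did not all rise alike. Tubb3 was at 1119 to 1243 CPM on days 4 and 7 and at 1266, 1453 and 1545 CPM on day 10, a log2 change of 0.29 ± 0.10 (adjusted p = 0.0435) that passed in only 7 of 17 alternative settings. Map2, a dendritic microtubule protein, lay between 322 and 561 CPM and did not pass in either comparison (log2 0.14 ± 0.12 and -0.14 ± 0.12). The neurofilament gene Nefl reached 171 CPM in WT but 56.8 and 60.7 CPM in Per1-/- and Per2-/- on day 10, from 10.1 to 25.6 CPM on day 4 (log2 2.60 ± 0.48 by day 10). Of 29 cytoskeletal and growth cone genes, 11 rose and 1 fell by day 7, and 17 rose and 1 fell by day 10. Without WT day 4, WT day 7 or Per1-/- day 7 the day 7 count of risers was 7. Of 8 pan-neuronal genes outside the rule, 5 rose by day 7 and 7 by day 10, and none fell. By day 10, 5 rose after thinning and 6 without Per1-/- day 4, and 1 fell without WT day 10. The shares of all genes that rose were 9.12% and 20.8%.

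Most genes of synaptic vesicles and release rose. Of 42 tested, 22 were higher by day 7 and 31 by day 10 (9.12% and 20.8% of all genes), and none was lower (5.63% and 18.4% of all genes). Their median log2 change was 0.66 and 0.96, against 0.003 and -0.005 over all genes tested. Syp, a vesicle membrane protein, stood at 14.1, 17.6 and 19.5 CPM on day 4, 40.3, 40.8 and 51.5 CPM on day 7 and 82.7, 76.6 and 95.8 CPM on day 10 (log2 1.36 ± 0.10 and 2.39 ± 0.10). Syn1, which tethers vesicles, was at 31.4 to 36.2 CPM, 63.1 to 67.8 CPM and 80.0 to 93.8 CPM on the 3 days. Syt4, a synaptotagmin of dense-core and recycling vesicles, rose by log2 1.31 ± 0.14 and 1.90 ± 0.14, and Sncb (beta-synuclein) by 1.63 ± 0.18 and 3.55 ± 0.17. Vamp2, the vesicle SNARE of the fusion core, passed on day 10 but not on day 7 (0.28 ± 0.09, adjusted p = 0.0731, then 0.88 ± 0.09).

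**Figure D3:**
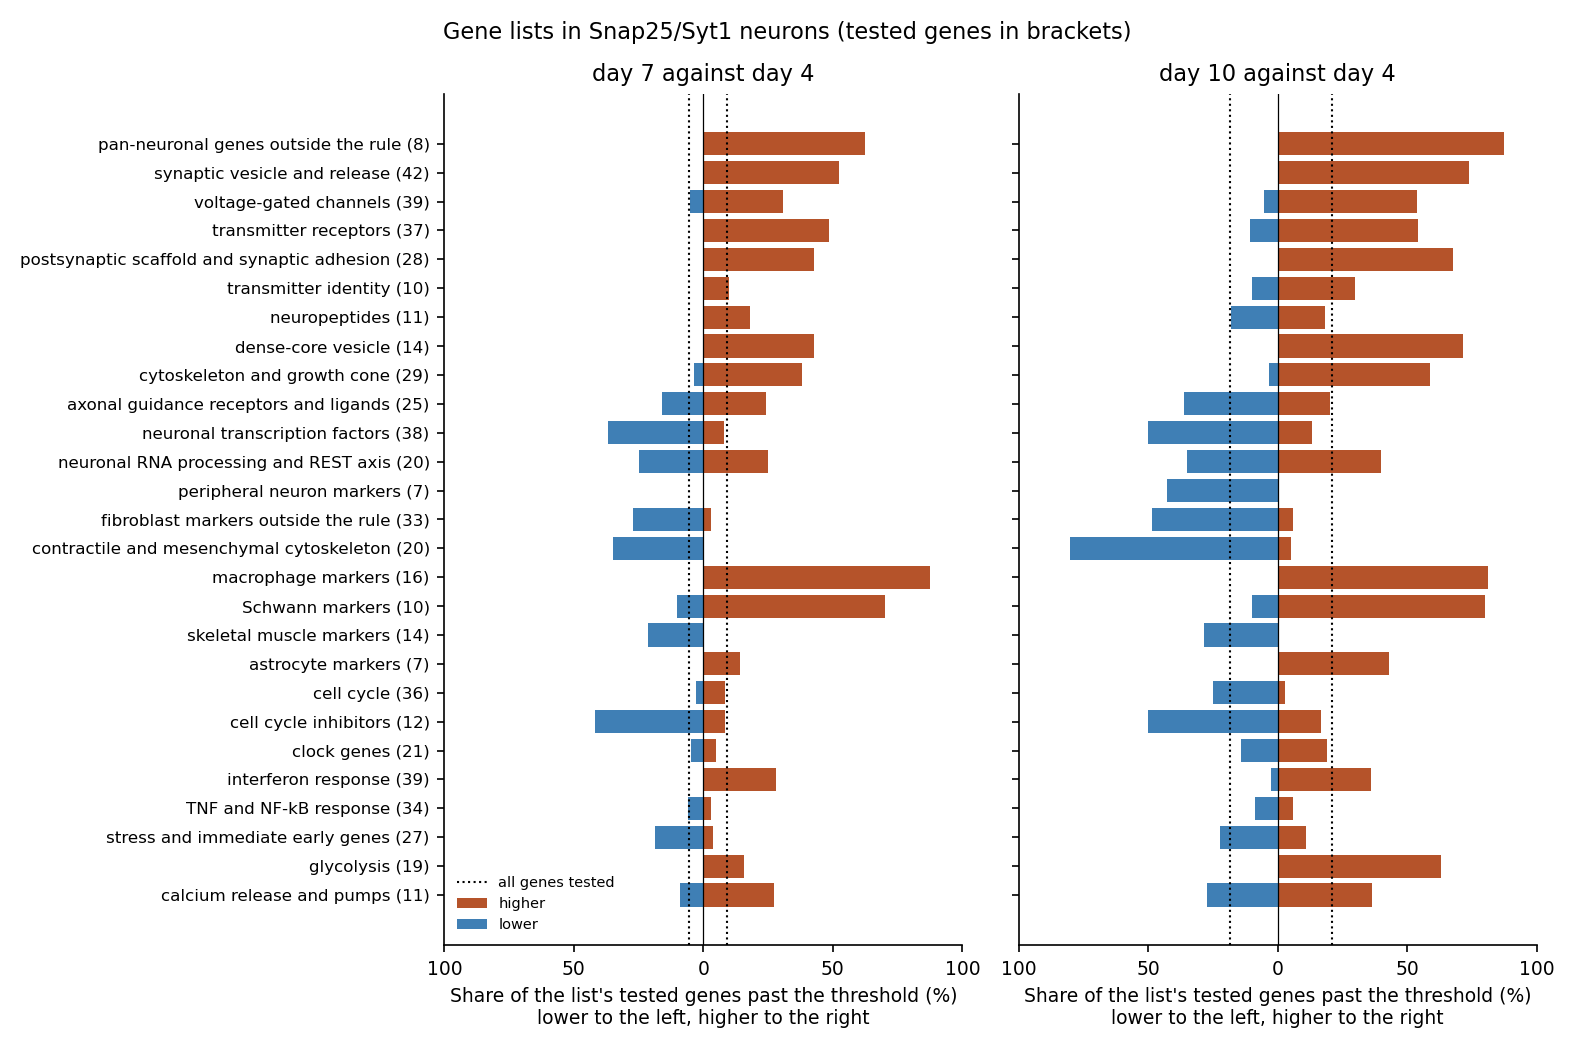
For each gene list with at least 7 tested genes, bars give the percentage of its tested genes that were higher (right) or lower (left) at an edgeR adjusted p under 0.05, for day 7 (left panel) and day 10 (right panel) against day 4, and dotted lines give the percentage over all genes tested. Synaptic vesicle genes (22 and 31 of 42) reach past the dotted lines on the right without a bar on the left, while neuronal transcription factors (14 and 19 of 38 lower) reach to the left.

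Among genes of excitability and of transmitter reception, more rose than fell, and many passed in neither direction. Of 39 voltage-gated channel genes, 12 rose and 2 fell by day 7, and 21 rose and 2 fell by day 10, against 9.12% rising and 5.63% falling among all genes by day 7 and 20.8% and 18.4% by day 10. Scn2a, a sodium channel of axons, stood at 17.2, 16.3 and 16.2 CPM on day 4, 47.5, 49.2 and 57.1 CPM on day 7 and 80.9, 84.8 and 95.02 CPM on day 10 (log2 1.61 ± 0.10 and 2.46 ± 0.10). Scn3a, a sodium channel of immature neurons, rose by log2 2.23 ± 0.13 by day 7. On both days the falling genes were Cacna1h, a T-type calcium channel, and Cacna2d1, an auxiliary calcium channel subunit (log2 -0.71 and -0.31 by day 7). Without WT day 4 or Per1-/- day 7 the day 7 count of risers was 7, without Per1-/- day 4 it was 8, and after thinning it was 8 of 32. The day 7 count of falling genes was 0 without Per1-/- day 4 and after thinning, and 1 without the cells that carried macrophage markers.

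Of 37 transmitter receptor genes, 18 rose by day 7 and none fell, and by day 10 20 rose and 4 fell, against 9.12% rising and 5.63% falling among all genes by day 7 and 20.8% and 18.4% by day 10. Gria2 rose from 229, 267 and 269 CPM to 468, 502 and 526 CPM and then stood at 591, 508 and 512 CPM (log2 0.96 ± 0.10 and 1.15 ± 0.10), so that days 7 and 10 overlapped. Grin2b, an NMDA receptor subunit, was at 9.30 to 13.8 CPM on day 4 and 46.1 to 79.7 CPM on day 10. The genes that fell by day 10 were the AMPA receptor subunit Gria3, the nicotinic subunits Chrna4 and Chrna7 and the purinergic channel P2rx3 (log2 -0.68, -0.73 and -1.06 for the last 3). Without WT day 4, Per1-/- day 10 or Per2-/- day 10, 1 of 37 fell by day 10, and 2 of 30 after thinning. Of 28 genes for postsynaptic scaffolds and synaptic adhesion, 12 rose by day 7 and 19 by day 10 (9.12% and 20.8% of all genes), and none fell. They included Nlgn3, a postsynaptic adhesion protein (log2 2.11 ± 0.18 and 2.62 ± 0.18). The scaffold Dlg4 did not pass by day 7 (0.37 ± 0.11) and rose by day 10 (0.52 ± 0.12).

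Dense-core vesicle genes rose in part, and their peptide cargoes were uneven between cells. Of 14 dense-core vesicle genes, 6 rose by day 7 (3 without Per1-/- day 4, Per1-/- day 7 or Per2-/- day 7) and 10 by day 10, against 9.12% and 20.8% of all genes. Scg2, a granin, went from 38.8, 33.5 and 37.8 CPM to 136, 175 and 202 CPM and then 180, 176 and 220 CPM, while the granin Chgb lay between 325 and 436 CPM and passed in neither comparison. Of 11 tested neuropeptide genes, 2 rose by day 7, and 2 rose and 2 fell by day 10, where 18.4% of all genes fell. With 13 genes tested, 4 rose on each day without Per1-/- day 4 or Per1-/- day 7, and 3 and 4 without WT day 10. Nts, which encodes neurotensin, stood at 80.9, 21.5 and 62.1 CPM on day 4, 442, 565 and 570 CPM on day 7 and 716, 859 and 1213 CPM on day 10 (log2 3.35 ± 0.39 and 4.23 ± 0.40, adjusted p = 0.000818 and 5.38e-05). The days did not overlap, but few cells carried the transcript: thinned shares of cells with an Nts UMI were 3.30% to 6.20%, 14.8% to 23.4% and 23.8% to 36.6%, against 0.853% to 6.95% of macrophages. On day 10 the tenth of cells richest in Nts held 81.7%, 87.6% and 66.9% of its UMI in WT, Per1-/- and Per2-/-. Gal, which encodes galanin, was at 74.8, 90.1 and 130 CPM on day 4, 36.8, 127 and 27.6 CPM on day 7, and 12.3, 6.67 and 18.4 CPM on day 10 (log2 -2.79 ± 0.54 by day 10).

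A transmitter identity was barely visible. Of 23 genes for transmitter synthesis and transport, 10 passed the filter on low counts. Of these, 1 rose by day 7, and 3 rose and 1 fell by day 10. Among all genes 9.12% rose by day 7, and 20.8% rose and 18.4% fell by day 10. With only 10 genes tested, none of the list's shares stood clearly apart from these. After thinning, 1 of 4 rose and 1 fell by day 10. Over all 6068 cells, Gad1, for GABA synthesis, had 21 UMI, Slc32a1, the vesicular GABA transporter, 8, Th, for catecholamine synthesis, 28, and Chat, for acetylcholine synthesis, 33. Slc17a6, a vesicular glutamate transporter, was at 2.10 to 2.72 CPM on day 4 and 2.27 to 3.35 CPM on day 7, and rose to 8.57, 7.62 and 11.8 CPM in WT, Per1-/- and Per2-/- on day 10 (log2 2.06 ± 0.24, adjusted p = 0.000166). The 12 markers of peripheral neurons summed to 68.6 to 111 CPM. Among them Phox2a, an autonomic lineage factor, had 32 UMI and Scn10a, a sensory sodium channel, 1 UMI over all cells, while Prph, an intermediate filament gene, had 3190. Of the 7 tested, 3 fell by day 10 and none rose.

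More neuronal transcription factor genes fell than rose. Of 38 tested, 3 rose and 14 fell by day 7, and 5 rose and 19 fell by day 10, against 5.63% and 18.4% of all genes falling. After thinning 8 of 31 fell by day 7, and without any one of the day 4 and day 7 libraries 6 (without WT day 4) to 10 (without Per1-/- day 4) fell. Sox11 and Sox4, which act in young neurons, stood at 1536 to 1760 CPM and 2219 to 2433 CPM on day 4, and fell over 861 to 994 CPM and 1334 to 1439 CPM on day 7 to 454 to 574 CPM and 929 to 1013 CPM on day 10. Hes6, which opposes Notch effectors, fell from 412, 410 and 344 CPM to 177, 179 and 165 CPM and then 137, 140 and 151 CPM (log2 -1.17 ± 0.10 and -1.36 ± 0.10). Miat, a long non-coding RNA of the nervous system, had the smallest p among the falling genes by day 7, from 973, 1035 and 957 CPM on day 4 to 313, 378 and 276 CPM on day 7 and 167, 203 and 125 CPM on day 10 (log2 -1.64 ± 0.11 and -2.54 ± 0.11, adjusted p = 5.28e-05 and 5.50e-07). The risers were few. Neurod1, a proneural factor, rose from 0.774 to 1.79 CPM to 7.75 to 20.9 CPM on day 7 (log2 3.39 ± 0.49).

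Pou3f2 and Myt1l, which were also introduced by virus, were examined as well. Pou3f2 was at 1930 to 2058 CPM on day 4 and 1327, 1565 and 1424 CPM on day 10 (log2 -0.41 ± 0.10, adjusted p = 0.00949). Myt1l rose by day 7 (0.92 ± 0.21, adjusted p = 0.0200), a call lost in 6 of 18 alternative settings, and was back at 67.0 to 119 CPM on day 10. Of 20 genes for neuronal RNA processing and the REST axis, 5 rose and 5 fell by day 7 (9.12% and 5.63% of all genes), or 3 and 3 without Per1-/- day 4 or Per1-/- day 7 and 4 and 3 without Per2-/- day 7, and 8 rose and 7 fell by day 10 (20.8% and 18.4%). The rising genes included the splicing regulators Celf4 (0.91 ± 0.09) and Celf6 (0.71 ± 0.12). Srrm4, a splicing factor of neural microexons, and Rcor2, a corepressor, fell (-0.65 ± 0.10 and -1.03 ± 0.12).

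Markers of fibroblasts were also measured, and their sum was higher in macrophages than in Snap25/Syt1 neurons in every library. The collagen limit of the rule applied to neurons but not to macrophages. The 3 collagen genes summed to 851 to 1208 CPM in Snap25/Syt1 neurons and to 2143 to 5687 CPM in macrophages. The selection thus partly set the direction of this comparison. Of 33 fibroblast markers outside the rule, 1 rose and 9 fell by day 7, and 2 rose and 16 fell by day 10, against 5.63% and 18.4% of all genes falling. After thinning 5 and 9 of 33 fell, and without the cells marked as doublets 5 fell by day 7, and 6 rose and 6 fell by day 10. Without WT day 10, 5 rose by day 10. Prrx1, a mesenchymal transcription factor, stood at 107, 122 and 123 CPM on day 4, 62.0, 54.8 and 65.9 CPM on day 7 and 39.1, 41.3 and 41.1 CPM on day 10 (log2 -0.95 ± 0.09 and -1.46 ± 0.09), whereas Dcn (decorin) was called higher on both days (0.50 ± 0.13 and 0.64 ± 0.13), the day 7 call being lost in 7 of 18 alternative settings. In macrophages the median level was 97.7 CPM for Prrx1 and 388 CPM for Dcn. Of 20 contractile and mesenchymal cytoskeletal genes, 7 fell by day 7, and 16 fell and 1 rose by day 10. After thinning, 5 of 19 were lower by day 10, near the 18.4% of all genes, and without doublets 7 of 20. Without Per2-/- day 4, 10 were lower by day 10, and without WT day 4, WT day 7 or Per1-/- day 7, 3 or 4 by day 7. The sum of the list was lower on day 10 in macrophages too. It was 6923, 7049 and 7274 CPM in WT, Per1-/- and Per2-/- on day 4 and 6037, 5031 and 4566 CPM on day 10, against 4767, 4528 and 4917 CPM and 3378, 3441 and 3091 CPM in Snap25/Syt1 neurons. Cald1, an actin-binding protein, went from 745 to 777 CPM over 376 to 434 CPM to 191 to 279 CPM. Acta2, the smooth muscle actin, went from 62.0, 65.5 and 78.1 CPM to 13.9, 4.19 and 19.2 CPM by day 10 (log2 -2.56 ± 0.38), and the macrophage medians were 173 CPM for Cald1 and 51.1 CPM for Acta2. The part of free or admixed RNA in these levels was not tested.

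Of 36 cell cycle genes, 3 rose and 1 fell by day 7, near the 9.12% and 5.63% of all genes tested. By day 10, 1 rose and 9 fell (20.8% and 18.4% of all genes), or 3 without WT day 4 or Per1-/- day 4, 18 without Per2-/- day 4, 4 without WT day 10, 5 without Per1-/- day 10, 3 of 35 without doublets and 3 of 27 after thinning. Mki67, a marker of cycling cells, lay between 8.84 and 24.2 CPM on days 4 and 7 and between 1.20 and 10.4 CPM on day 10, against a median of 141 CPM in macrophages. Among 12 inhibitors, Cdkn1c, a CDK inhibitor, fell from 628 to 718 CPM to 171 to 275 CPM by day 10, and Btg2, an antiproliferative early response gene, from 210 to 218 CPM to 65.0 to 91.7 CPM. Cend1, which goes with cell cycle exit in neurons, rose from 8.77 to 10.7 CPM to 22.1 to 29.5 CPM.

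Of 25 axon guidance genes, 6 rose and 4 fell by day 7 (9.12% and 5.63% of all genes), and 5 rose and 9 fell by day 10 (20.8% and 18.4% of all genes), with medians of 0.06 and -0.23. Without any one of the day 4 and day 7 libraries 1 to 3 rose and 0 to 3 fell by day 7, after thinning 2 and 2, and without Per2-/- day 10 3 rose by day 10. Dcc, the netrin receptor, rose by day 10 (1.17 ± 0.12), while Robo1, a Slit receptor, fell (-0.59 ± 0.13). Among 11 genes for calcium release and pumps, Itpr3, an IP3 receptor, fell from 65.5, 64.8 and 71.8 CPM to 29.9, 33.5 and 31.4 CPM and then 20.3, 15.05 and 19.8 CPM, and Atp2b2, a plasma membrane calcium pump, rose (1.04 ± 0.09 and 1.51 ± 0.09). In the glycolysis list of 19 genes, 3 rose by day 7 and 12 by day 10 (9.12% and 20.8% of all genes), and none fell, with 5 by day 7 without Per2-/- day 10. They included Eno2, the neuronal enolase (0.84 ± 0.09 and 1.38 ± 0.09), and Gapdh (0.51 ± 0.12 and 0.96 ± 0.12).

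Macrophage and interferon genes also rose, and these counts moved with the cells that carried macrophage markers. Of 16 macrophage markers, 14 rose by day 7 and 13 by day 10. Without the 122 cells that carried such markers, 1 of 14 rose by day 7 and 8 by day 10, and after thinning 14 of 14 on both days. The 122 cells were picked by macrophage genes, so a lower count without them was partly set by that choice. Without the cells marked as doublets 2 of 15 rose by day 7. Of the 16, 5 rose by day 7 without WT day 4, 8 without Per1-/- day 4, 9 without Per2-/- day 4 and 7 without WT day 7. By day 10, 4, 2 and 5 rose without WT, Per1-/- and Per2-/- day 4, and 1 without Per1-/- or Per2-/- day 10. Of 39 interferon response genes, 11 rose by day 7, and 14 rose and 1 fell by day 10, against 1 of 35 by day 7 and 10 rising and 2 falling by day 10 without those cells. The shares of all genes that rose were 9.12% and 20.8%. The day 7 interferon count was 4 of 28 after thinning, 2 of 34 without doublets, and 4 to 6 without Per1-/- or Per2-/- day 4 or any one of the day 7 libraries, and the day 10 count was 9 without Per2-/- day 10. Of 10 Schwann markers, 7 rose and 1 fell by day 7, and 8 rose and 1 fell by day 10, although after thinning 2 of 8 rose by day 7. Sox10, the Schwann lineage factor, went from 0.903 to 3.63 CPM over 6.57 to 10.1 CPM to 13.9 to 19.1 CPM, and the part of free or admixed RNA in this was not tested. The synaptic vesicle counts were 24 of 42 and 31 of 42 without the 122 cells, and 21 of 39 and 28 of 39 after thinning, where 1 gene fell by day 10.

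No gene differed between Per1-/- and WT or between Per2-/- and WT in the Snap25/Syt1 neurons (0% of 14606 genes in each, edgeR adjusted p under 0.05). At an unadjusted p under 0.05 there were 746 and 571 genes, and DESeq2 called 35 and 12. The targeted genes were examined first. Per1 (chr11:69095217-69109960) lay between 5.98 and 9.48 CPM in all libraries, with 9.48, 7.48 and 6.28 CPM where the label was Per1-/- and 6.74, 7.31 and 5.98 CPM in WT. Per2 (chr1:91415982-91459324) was higher where the label was Per2-/-, at 5.97, 8.01 and 9.68 CPM, than in the other 6 libraries, at 2.59 to 3.88 CPM, without overlap (log2 1.25 ± 0.23 against WT, adjusted p = 0.516). Since 3′ reads can lie outside a deleted segment, transcript counts do not check these alleles.

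Neuronal genes were compared between genotypes over the 3 days. Per1-/- differed from WT by log2 0.11 ± 0.08 for Mapt, 0.09 ± 0.10 for Syp, 0.05 ± 0.10 for Gria2 and -0.02 ± 0.12 for Map2, and the median over the 42 synaptic vesicle genes was -0.04, against -0.002 over all genes. Per2-/- differed from WT by 0.27 ± 0.08 for Mapt and 0.37 ± 0.09 for Syp, with a median of 0.04 over the vesicle genes and 0.007 over all genes. None of these passed the adjusted test, which does not show that the genotypes were equal. The genes of smallest p did not pass either. Ryr2, an intracellular calcium release channel, stood at 19.3, 22.1 and 26.1 CPM in WT, 31.4, 47.4 and 43.2 CPM in Per1-/-, and 23.1, 37.1 and 29.0 CPM in Per2-/- on days 4, 7 and 10 (Per1-/- against WT log2 0.86 ± 0.12, adjusted p = 0.134). The splicing regulator Rbfox1 was likewise higher in Per1-/- (0.72 ± 0.10, adjusted p = 0.134), with no overlap with WT. Cdkn2a, which encodes inhibitors of the cell cycle, was lower in Per2-/- than in WT without overlap, with 59.98, 48.9 and 54.7 CPM against 114, 89.3 and 86.1 CPM on days 4, 7 and 10 (-0.79 ± 0.09, adjusted p = 0.135).

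Between Per1-/- and Per2-/-, 2 genes were called (0.0137%), while 1047 had an unadjusted p under 0.05 and DESeq2 called 37. Both were higher in Per1-/-. Cck, which encodes the peptide cholecystokinin (chr9:121489824-121495694), stood at 43.7, 148 and 35.6 CPM in Per1-/-, 6.46, 15.5 and 0.406 CPM in Per2-/-, and 11.5, 58.8 and 4.78 CPM in WT on days 4, 7 and 10 (log2 3.57 ± 0.40, adjusted p = 0.0371). Per1-/- was higher than Per2-/- on each day, although the ranges with WT overlapped. The transcript came from 39, 10 and 18 cells in Per1-/- and from 18, 12 and 6 cells in Per2-/-, and thinned shares of cells with a UMI were 0.334% to 5.09% over all libraries, against 0.275% to 2.01% of macrophages. The call was lost after thinning (log2 2.45, adjusted p = 0.323), with a minimum of 2 UMI, without a day term, with a Y-linked covariate, and without WT day 4, WT day 10, Per1-/- day 7 or Per2-/- day 7 (adjusted p = 0.0719, 0.0521, 0.0620 and 0.242). Ccl4, a chemokine gene (chr11:83662584-83664683), was at 2.93, 26.7 and 6.67 CPM in Per1-/- and 0.484, 4.30 and 1.42 CPM in Per2-/- (2.54 ± 0.27, adjusted p = 0.0371). In macrophages Ccl4 was at 55.9 to 146 CPM, and macrophage markers in the Snap25/Syt1 neurons summed to 456, 1402 and 1590 CPM in Per1-/- against 297, 886 and 747 CPM in Per2-/-, with a part in the result that was not tested. Its call was lost without WT day 4, Per1-/- day 7 or any of the Per2-/- libraries (adjusted p = 0.0562 to 0.248), with days 4 and 7 only (adjusted p = 0.126), with a minimum of 2 UMI, without a day term and with a Y-linked covariate, and Ccl4 fell under the filter on low counts without doublets, without the cells with macrophage markers and after thinning.

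**Figure D4:**
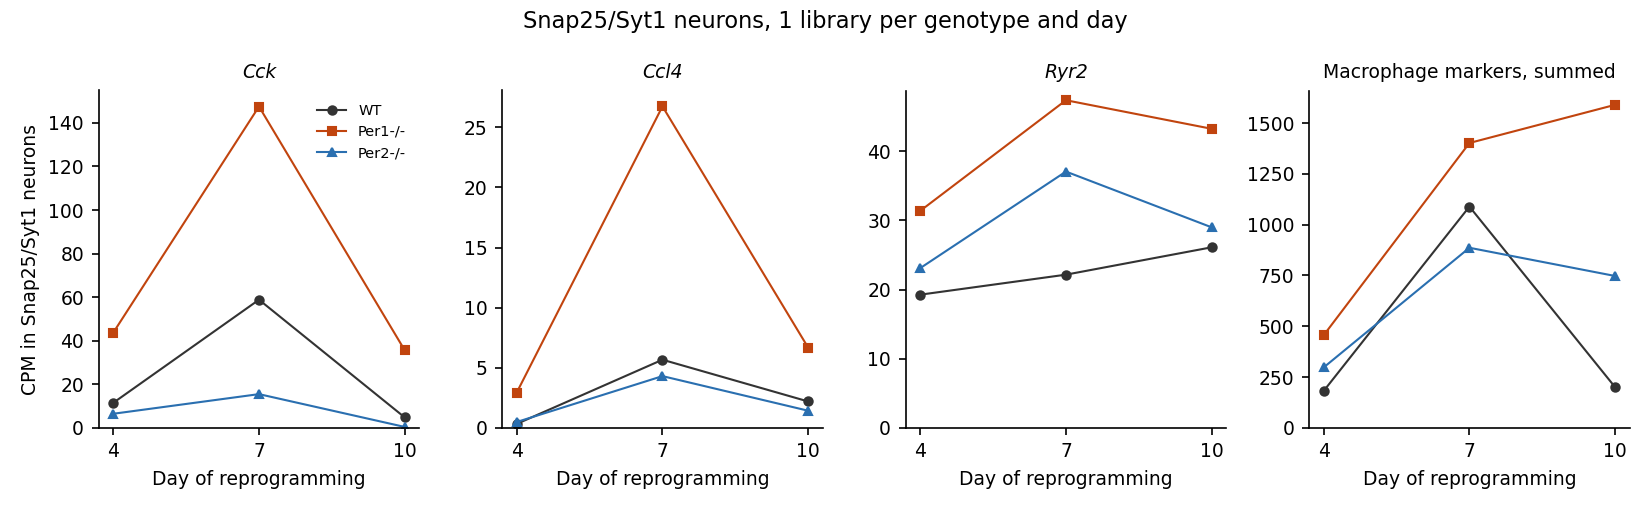
CPM in Snap25/Syt1 neurons is plotted against the day of reprogramming for Cck, Ccl4, Ryr2 and the sum of 16 macrophage markers, with 1 point per genotype and day. Per1-/- lies above Per2-/- in each panel on each day, and the macrophage sum ranges from 182 CPM (WT day 4) to 1590 CPM (Per1-/- day 10).

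Compared with other neurons of the same library, the Snap25/Syt1 neurons were higher in 1758 of 13132 genes in all 9 libraries (13.4%) and lower in 937 (7.14%). This comparison is a description, since the rule chose the cells. Depth differs between the classes, and 847 genes were higher in every library after thinning. The smallest log2 ratio over the 9 libraries was 0.75 for Kcnb2, a delayed rectifier potassium channel, 0.58 for Scn2a, 0.57 for Myt1l, 0.49 for Grin1, an obligatory NMDA receptor subunit, and 0.48 for Kif5a, a motor of axonal transport. Of 40 synaptic vesicle genes 24 were higher in all 9 libraries, and of 29 cytoskeletal genes 21. Pou3f2 had a median log2 ratio of 1.03 and was higher in all 9 libraries.

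**Figure D5:**
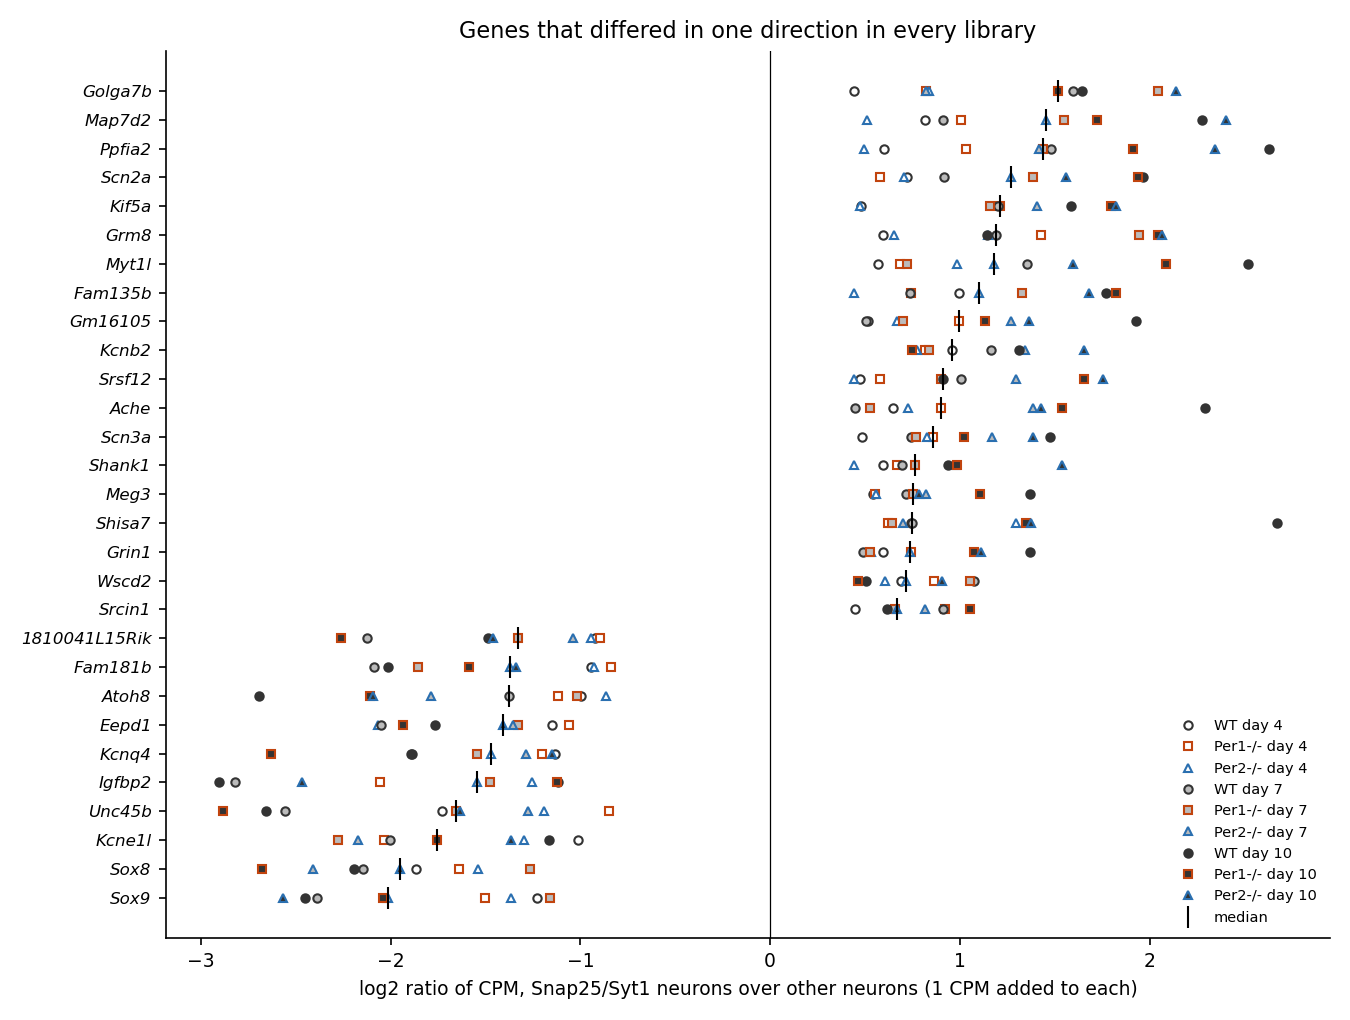
For 19 genes that were higher and 10 that were lower in Snap25/Syt1 neurons than in other neurons of the same library, the log2 ratio of CPM (1 CPM added to each) is plotted for each of 9 libraries, with the median as a bar. The day 10 points of Scn2a lie at 1.56 to 1.96, to the right of its day 4 points at 0.58 to 0.72.

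Among the genes that were lower in every library, the largest ratio over the 9 libraries was -1.27 for Sox8 and -1.16 for Sox9, which act in glial and other progenitors, and -1.12 for Igfbp2, a secreted binder of insulin-like growth factors. The peripheral intermediate filament gene Prph had a median ratio of -1.83, and was at 17.9 to 37.6 CPM in Snap25/Syt1 neurons against 41.5 to 151 CPM in other neurons. In all 9 libraries other neurons summed higher for macrophage markers (268 to 3234 CPM), skeletal muscle markers (389 to 2596 CPM) and cell cycle genes (617 to 2041 CPM, against 316 to 668 CPM in Snap25/Syt1 neurons). Schwann markers summed higher in other neurons in 8 libraries but lower in Per1-/- day 10 (80.0 against 221 CPM), as did astrocyte markers (33.1 against 142 CPM). None of the 8 Schwann and 7 astrocyte markers compared was lower in all 9 libraries, and 1 Schwann marker was higher in all 9.

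For a set of genes the change by day 10 differed between the classes. The change from day 4 to day 10 was higher in Snap25/Syt1 neurons than in other neurons for 833 genes (6.05%) and lower for 382 (2.77%), together 8.82% of the 13770 genes tested by an interaction term in edgeR. After thinning the balance turned, with 165 genes higher and 244 lower of 409. Single libraries moved the count from 77 (without WT day 4) to 2963 (without Per1-/- day 10), and detection of Snap25 and Syt1 set the classes on each day. The rule's own contrast was wider on day 10. Snap25 and Syt1 summed to 512, 496 and 525 CPM against 292, 203 and 281 CPM in other neurons on day 4. On day 10 the sums were 712, 680 and 678 CPM against 165, 208 and 140 CPM in WT, Per1-/- and Per2-/-. The part of this selection in the differences was not tested. Gng3, a neuronal G protein subunit, went from 134, 175 and 217 CPM on day 4 to 447, 425 and 733 CPM on day 10 in Snap25/Syt1 neurons, and from 119, 100 and 197 CPM to 79.1, 69.7 and 118 CPM in other neurons (difference in log2 change 2.26 ± 0.19, adjusted p = 0.00594). The log2 ratio between the classes was 0.17, 0.80 and 0.14 on day 4 and 2.48, 2.59 and 2.63 on day 10. Tubb2a, a neuronal beta-tubulin, also passed with the higher change in Snap25/Syt1 neurons (1.16 ± 0.12). Of the lists, 15 of 42 synaptic vesicle genes and 15 of 29 cytoskeletal genes passed with the higher change in Snap25/Syt1 neurons, while 7 of 33 fibroblast markers, 7 of 20 contractile genes and 10 of 36 cell cycle genes passed with the lower. For day 7 against day 4 and for the 3 genotype comparisons no gene passed (0% of 13770). Before adjustment, 1200, 308, 325 and 444 genes had a p under 0.05, and DESeq2 called 7, 1, 1 and 2.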

How the data were processed

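Libraries were droplet 3′ libraries (10x Chromium), and the authors' deposited files hold raw UMI counts per gene and barcode. The file headers name Cell Ranger 4.0.0 for days 4 and 7 and 6.0.0 for day 10, whereas the submitters' processing notes name Cell Ranger 7.1 with mm10. The deposited counts were used as they are, over the 30406 gene identifiers shared by both gene tables. Counts were summed per library and class and tested with edgeR 4.0.16 (quasi-likelihood, TMM, filterByExpr, genotype and day as factors, Benjamini-Hochberg threshold 0.05) in R 4.3.3, with other neurons and a term for each library added to the model for class differences. Scripts were tested on simulated data. The SE given after a log2 change was derived from the test, as the absolute log2 change divided by the square root of the F statistic. Doublets were ranked with Scrublet (scanpy 1.11.5). Gene positions follow GENCODE release M21.

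The members and gene lists were chosen with earlier results of these data known. Named genes were called genes of smallest p, the genes of each list with most UMI or a call, and genes picked by their ratio to other neurons. The last had the largest smallest ratio, or the smallest largest ratio, over the 9 libraries. Alternatives were DESeq2 1.42.0, RLE, no filter, doublets left out, a minimum of 2 UMI, thinning, no day term, a Y-linked covariate, days 4 and 7 only, and each library left out. Some genes are not reported here.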

Additional observations from a re-analysis of the deposited data

Results flagged for a closer look

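The differences in day 10 against day 4 change between Snap25/Syt1 neurons and other neurons were singled out because the interaction term passed. They comprised 833 genes with a higher and 382 genes with a lower change in Snap25/Syt1 neurons. Among the genes of smallest p with a higher change were Gng3 (difference in log2 change 2.26), Mgarp (1.89), Acot7 (1.60), Bex4 (1.59), Tspan13 (1.47), AW551984 (1.41), Tubb2a (1.16) and Tecr (0.98). Mgarp, which encodes a mitochondrial protein, was lower on day 10 in both classes, going from 56.2 to 105 CPM on day 4 to 21.5 to 36.2 CPM in Snap25/Syt1 neurons and from 55.8 to 90.3 CPM to 6.21 to 7.09 CPM in other neurons by day 10. With a lower change came Ube2c (-2.47), Creb5 (-1.82), Tubb6 (-1.62), Hist1h2bc (-1.10), Irf2bp2 (-1.01), Zyx (-1.01), Cdkn1a (-0.97) and Cald1 (-0.88). Tubb6, a tubulin of non-neuronal cells, went from 85.3 to 88.5 CPM to 22.9 to 24.9 CPM in Snap25/Syt1 neurons and from 74.6 to 85.8 CPM to 61.5 to 83.5 CPM in other neurons, with no overlap on day 10. Creb5, a transcription factor gene, was at 12.4 to 17.3 CPM in Snap25/Syt1 neurons and 33.4 to 50.4 CPM in other neurons on day 10. Ube2c, a mitotic ubiquitin enzyme, was at 3.79, 6.86 and 12.3 CPM against 40.0, 16.6 and 91.6 CPM.

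Marker sums of other cells moved beside these differences. On day 10, macrophage markers summed to 200, 1590 and 747 CPM in Snap25/Syt1 neurons of WT, Per1-/- and Per2-/- and to 1672, 2131 and 3234 CPM in other neurons, and Schwann markers to 314, 221 and 263 CPM against 1995, 80.0 and 1390 CPM. Skeletal muscle markers summed to 232, 154 and 66.7 CPM against 1117, 2596 and 999 CPM, and were higher in other neurons in all 9 libraries. The part of these cells' RNA and of the selection by Snap25 and Syt1 in the differences was not tested. The calls for Mgarp, Cdkn1a and Ube2c were lost after thinning.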

How the results depend on the processing

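Alternatives with thinned sums, without cells carrying macrophage markers and without the 89 genes that moved in macrophages and the remaining non-neuron cells were chosen after seeing the data. Of 243 named genes called by day 7, 101 kept their call in every alternative and 3 reversed in some. By day 10 these numbers were 243 and 8 of 372, and for class differences by day 10 18 and 3 of 121. The cause of the changes below was not tested.

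Counts of called genes for Per1-/- against WT (0) were 35 with DESeq2, 95 without the filter and 1 with a minimum of 2 UMI. For Per2-/- against WT (0) they were 12 with DESeq2, 22 without the filter, 1 without doublets, 1 without cells with macrophage markers and 3 with the Y-linked covariate. For Per1-/- against Per2-/- (2) they were 37 with DESeq2, 142 without the filter, 1 with a minimum of 2 UMI, and 0 after thinning, without a day term or with the Y-linked covariate. For day 7 (2154) the count was 1235 after thinning. Class differences with DESeq2 numbered 1 (Per1-/- against WT), 1 (Per2-/- against WT), 2 (Per1-/- against Per2-/-), 7 (day 7) and 612 (day 10), and after thinning 3, 6, 3, 88 and 409, the last with 165 higher and 244 lower against 833 and 382. Without the filter day 7 gave 1, and with a minimum of 2 UMI day 10 gave 1853. Genes higher than in other neurons in every library numbered 847 after thinning.

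With each library left out in turn, counts were 0 to 13 for Per1-/- against WT, 0 to 1 for Per2-/- against WT, 0 to 38 for Per1-/- against Per2-/-, 988 (without Per1-/- day 4) to 2680 for day 7 and 4115 to 5810 for day 10. Class differences were 0 to 8, 0 to 0, 0 to 8, 0 to 34 and, for day 10, 77 to 2963, with 77 without WT day 4, 136 without Per2-/- day 10, 139 without WT day 10, 178 without Per2-/- day 4, 484 to 601 without a day 7 library and 2963 without Per1-/- day 10. Genes higher than in other neurons numbered 1789 to 2156, and lower 952 to 1307. Since fewer libraries then had to agree, these counts lie above the 1758 and 937 of all 9 libraries and do not check them.

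Shares reversed as follows. The Per2-/- difference among cells kept was -0.0823 points after thinning to 10000 UMI. Among neurons, the Per1-/- difference was -3.04 and -4.51 and the Per2-/- difference 0.224 and 0.357 points after thinning to 10000 and 5000 UMI, and the day slopes summed to -4.24 without the collagen limit. With single libraries left out, the slopes were -4.77 to -2.05 among cells kept and -1.74 to 2.60 among neurons, reversing without WT day 4 (-1.48), Per2-/- day 4 (-0.842) and Per1-/- day 10 (-1.74). The Per1-/- difference was -2.47 to 0.520 (the last without Per1-/- day 7) and -0.425 (without Per1-/- day 4) to 5.75, and the Per2-/- difference -1.18 (without Per2-/- day 10; -0.474 without Per1-/- day 7) to 1.86 and -4.17 to -0.661. With 1 library per genotype and day there were no replicates to pair between genotypes or days. Genotypes were compared with day as a factor, and class differences within each library.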
